A study of Mus musculus with 2 samples.

Results

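Followed in whole omentum were 8 genes of 1 kind, Gas5, Snhg1, Snhg3, Snhg5, Snhg6, Snhg8, Snhg12 and Zfas1, the noncoding hosts of small nucleolar RNAs (snoRNAs). They were taken by symbol from the 24346 genes with a value. They were chosen by earlier FPKM of the same comparison, in which ribosomal protein genes were higher together. Of the members 7 were listed under their own symbol and Zfas1 was listed under its older symbol 1500012F01Rik. All 8 exceeded the minimum used for the comparison, a mean of 1 FPKM (fragment counts divided by the length of the transcript and by the mapped fragments) over both libraries. The groups were wild-type (WT) and Postn-DTR, with 1 library each. In Postn-DTR mice a diphtheria toxin receptor cassette was inserted by CRISPR/Cas9 into Postn, the gene for the matrix protein periostin, and the study used mice heterozygous for it. Both groups received diphtheria toxin (DT) and were examined 5 days later, and the receptor follows the Postn promoter, so that it is not restricted to the omentum. The age and sex of the mice, and whether a library held 1 animal or a pool, are not given in the sources used here. The study made the libraries to look for genes behind the recruitment of lymphocytes by Aldh1a2+ fibroblastic reticular cells, a stromal subset of the lymphoid clusters called milky spots.

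snoRNA host genes are transcribed by RNA polymerase II, and their snoRNAs are cut from the introns after splicing. The snoRNAs guide chemical modification or cleavage of ribosomal RNA: box C/D snoRNAs direct ribose methylation and box H/ACA snoRNAs direct pseudouridylation. The spliced host RNA has no known long open reading frame, and for several hosts it is destroyed by nonsense-mediated decay once ribosomes engage it. Many of these transcripts begin with a terminal oligopyrimidine (TOP) tract, a C followed by a run of C and T, which ribosomal protein and translation factor mRNAs share and through which the growth regulator mTORC1 controls their translation and stability.

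The annotated starts of the hosts are shown first, because the TOP tract is what the group was named for. RefSeq promoters on GRCm38.p6 were matched for 7 of the 8 members, and Snhg6 was not matched. Each line runs from 40 bases before the annotated start to 30 bases into the transcript, so that base 41 is the first transcribed base. Capitals mark a C within 5 bases of the start, followed directly by at least 4 bases that are C or T, with the whole run. They also mark the letters TATA where these lie wholly within the window from 40 to 20 bases before the start.
Gas5 (chr1:161035126-161035195, plus strand): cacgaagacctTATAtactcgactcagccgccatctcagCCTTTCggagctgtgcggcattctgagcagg
Snhg1 (chr19:8723447-8723516, plus strand): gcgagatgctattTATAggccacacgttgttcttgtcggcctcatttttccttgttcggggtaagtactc
Snhg3 (chr4:132353657-132353726, minus strand): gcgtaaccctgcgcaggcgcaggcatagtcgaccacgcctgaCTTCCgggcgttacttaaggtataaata
Snhg5 (chr9:88522868-88522937, minus strand): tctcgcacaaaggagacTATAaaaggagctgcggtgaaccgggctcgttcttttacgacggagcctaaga
Snhg8 (chr3:123508307-123508376, minus strand): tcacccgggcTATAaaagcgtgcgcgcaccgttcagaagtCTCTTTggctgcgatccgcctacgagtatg
Snhg12 (chr4:132308638-132308707, plus strand): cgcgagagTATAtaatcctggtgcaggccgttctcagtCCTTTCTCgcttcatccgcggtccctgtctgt
Zfas1 (chr2:167062894-167062963, plus strand): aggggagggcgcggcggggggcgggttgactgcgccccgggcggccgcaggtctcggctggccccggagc

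A TOP-like run at the start was found in 4 of the 7 members with a promoter, Gas5, Snhg3, Snhg8 and Snhg12. It was found in 19.7% of all genes with a promoter, in 30 of 61 ribosomal protein genes (49.2%) and in 14 of 67 mitochondrial ribosomal protein genes (20.9%). Snhg8 began on the run CTCTTT itself, and the run of Snhg12, CCTTTCTC, was the longest with 8 bases. Snhg1 and Snhg5 had no run by this rule. The letters TATA stood in the window of 5 of the 7 members, Gas5, Snhg1, Snhg5, Snhg8 and Snhg12, against 6.54% of all genes and 7 of 61 ribosomal protein genes (11.5%). TATA reads the same on both strands. Gas5 has a further annotated start upstream that held neither motif, and Zfas1 held neither at its annotated start. The letters CACGTG, the E-box that MYC can bind, were in none of the members' 300-base promoters and in 8.09% of all genes. These matches describe the letters around annotated starts, and the rules for them were written after the sequences had been read.

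The 8 genes are short and noncoding, and together they hold 30 annotated snoRNAs of 60 to 205 bases. Gas5 (chromosome 1, 161034422 to 161038539, plus strand, GRCm38) holds 9 and Snhg1 (chromosome 19, 8723475 to 8726443, plus) holds 8. Snhg12 (chromosome 4, 132308623 to 132311024, plus) holds 4, and Zfas1 (chromosome 2, 167062934 to 167065862, plus) holds 3. Snhg3 (chromosome 4, 132348014 to 132353686, minus) and Snhg5 (chromosome 9, 88521050 to 88522929, minus) hold 2 each. Snhg6 (chromosome 1, 9941959 to 9944118, minus) and Snhg8 (chromosome 3, 123507552 to 123508404, minus) hold 1 each. By the names of the snoRNAs, Snhg3 and Snhg8 host the H/ACA kind, Snhg12 hosts both kinds, and the named snoRNAs of the other 5 are of the C/D kind.

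**Figure D1:**
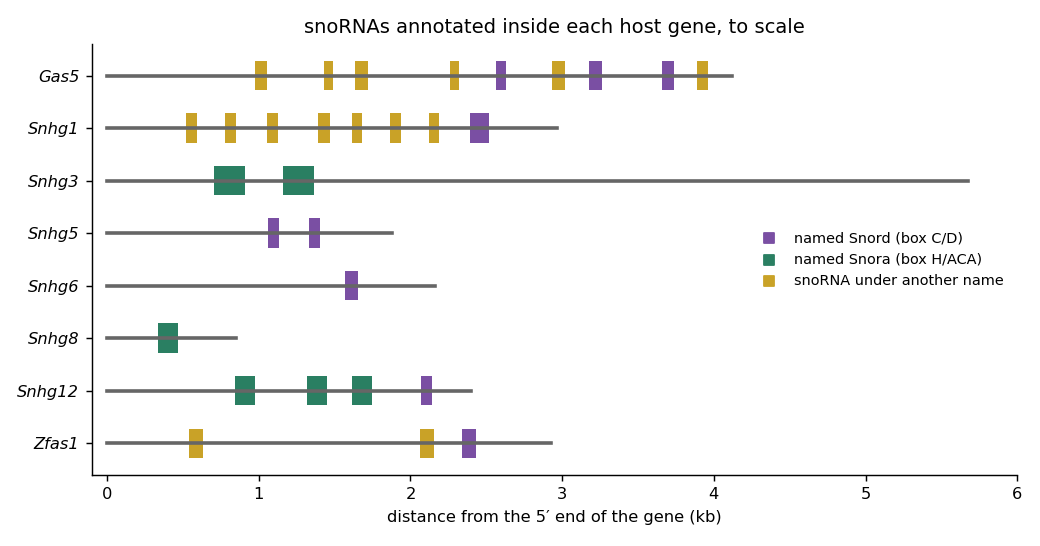
Map of the 8 host genes in GENCODE M21, drawn to scale from the 5′ end of each gene in kb (x axis), 1 line per gene, with boxes for the annotated snoRNAs coloured by name. Gas5 holds 9 snoRNAs and Snhg1 holds 8, while Snhg6 and Snhg8 hold 1 each.

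The libraries were of similar depth. Estimated from the steps between low values, 1 FPKM over 1 kb stood for about 18.6 reads in WT and 19.2 in Postn-DTR. With 1 library per genotype no spread between animals could be measured and no test was made. Postn was at 58.3 FPKM in WT and 16.2 in Postn-DTR, in the direction of the labels, although the insertion itself lies in a coding exon of 1 copy of Postn, so that lost cells and a disrupted allele cannot be told apart. The WT library held RNA of pancreatic acinar cells, whose 13 listed genes summed to 9973 FPKM (1.84% of the library) against 18.4 in Postn-DTR, and the total FPKM over all genes was 542190 for WT against 671882 for Postn-DTR. Adipocyte markers were abundant in both, with Adipoq at 955.2 and 635.9 FPKM, as was B cell Cd79a at 190.9 and 169.6.

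All 8 snoRNA hosts were higher in the Postn-DTR library. In whole tissue, a gain or loss of cells of a type and a change of RNA per cell cannot be told apart. The sum of their FPKM was 249.6 for WT against 479.5 for Postn-DTR, a ratio of 1.92, and single ratios ran from 1.29 for Gas5 to 2.44 for Zfas1. Changes are differences of log2(FPKM + 1), with WT subtracted from Postn-DTR. The median change of the 8 was 0.86, against 0.02 for the 13127 genes compared. Of the 8, 7 were at least 1.5-fold higher on this scale, where 9.86% of all genes compared were, and 3 of the 8, Zfas1, Snhg3 and Snhg6, were at least 2-fold higher, where 3.88% were. Since the members were chosen with this contrast in view, these counts are a description and carry no test. No member was lower at either threshold, where 8.84% and 3.12% of all genes were. Set beside the 82 ribosomal protein genes that led to the choice, the members had the higher median, 0.86 against 0.64, but 2 members, Gas5 and Snhg5, lay below the ribosomal median.

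**Figure D2:**
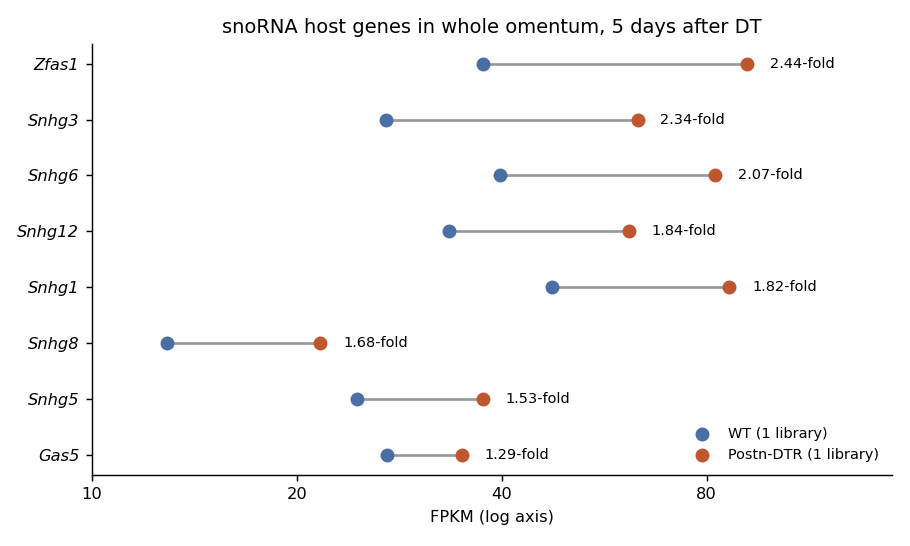
FPKM of the 8 hosts in the WT (blue) and Postn-DTR (orange) libraries on a log axis, 1 library per genotype, ordered by change, with the ratio of the FPKM beside each pair. Every Postn-DTR value lies to the right of its WT value, from 1.29-fold for Gas5 to 2.44-fold for Zfas1.

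Among the hosts of box C/D snoRNAs, Zfas1, which hosts Snord12 and lies head to head with the gene Znfx1, was at 37.5 FPKM in WT against 91.8 in Postn-DTR. It ranked 1 of 8 by level in Postn-DTR and 3 of 8 in WT, and its log2 change of 1.27 exceeded that of 97.6% of all genes compared. Snhg6, which hosts Snord87, was at 39.7 FPKM in WT against 82.3 in Postn-DTR, with a change of 1.03. Snhg1, which hosts a run of C/D snoRNAs ending with Snord22, was at 47.4 FPKM in WT against 86.4 in Postn-DTR, with a change of 0.85. Snhg1 had the highest level in WT and Zfas1 in Postn-DTR, but in each library the counting interval of the first overlapped that of the next, Snhg6 in WT and Snhg1 in Postn-DTR.

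Snhg5, the host of Snord50a and Snord50b, had a smaller difference, with 24.5 FPKM in WT against 37.5 in Postn-DTR and a change of 0.60, just inside the 1.5-fold threshold. Gas5, whose name stands for growth arrest specific and which is known as a decoy of the glucocorticoid receptor, was at 27.1 FPKM in WT against 34.96 in Postn-DTR. Its change of 0.36 was the smallest of the 8 and the only one outside the 1.5-fold threshold, and 80.8% of all genes compared had a lower change. By level, Gas5 ranked 5 of 8 in WT and 7 of 8 in Postn-DTR, and Snhg5 ranked 7 and 6.

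Of the hosts of box H/ACA snoRNAs, Snhg3 carries Snora73a and Snora73b, the U17 snoRNAs needed for cleavage of the ribosomal RNA precursor. It was at 27.0 FPKM in WT, level with Gas5, and at 63.3 in Postn-DTR, with a change of 1.20. Snhg8, the host of Snora24, was the least abundant in both libraries, with 12.9 FPKM in WT against 21.7 in Postn-DTR, and its change was 0.71. Snhg12, which carries both kinds, was at 33.5 FPKM in WT against 61.5 in Postn-DTR, with a change of 0.86. Of the values nearest to the 2-fold threshold, a change of 1, Snhg6 lay inside at 1.03 and Snhg12 and Snhg1 outside at 0.86 and 0.85. The 5 hosts whose named snoRNAs are box C/D spanned changes from 0.36 to 1.27, and the H/ACA and mixed hosts fell within that range. The 4 hosts with 1 or 2 snoRNAs had a median change of 0.87 and the 4 with more had 0.86, so the members did not separate by how many snoRNAs they hold.

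The counting error behind these values was gauged from the estimated depth. With the shortest annotated transcript of each gene, which gives the fewest reads, Snhg8 rested on about 74 and 129 reads and Zfas1 on about 283 and 716. The 95% interval of the ratio (exact binomial on these estimated reads, counting error only) was 2.13 to 2.82 for Zfas1, 1.80 to 3.06 for Snhg3, 1.74 to 2.49 for Snhg6, 1.53 to 2.23 for Snhg12 and 1.46 to 2.29 for Snhg1. It was 1.26 to 2.27 for Snhg8, 1.23 to 1.92 for Snhg5 and 0.978 to 1.71 for Gas5. The interval of Gas5 reached below 1, while with the median transcript length it was 1.10 to 1.51. All these intervals hold for the FPKM as deposited, and other scalings would shift them. As the members were chosen with this contrast in view, the intervals describe counting error and test nothing. In WT, 6 of the 7 pairs of neighbours in the order of levels had overlapping intervals of the level (exact Poisson), with only Snhg8 set apart, and in Postn-DTR 4 of 7 did, with gaps below Snhg6, Snhg12 and Gas5. The intervals do not cover variation between mice.

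Genes that overlap or adjoin the hosts were set beside them. Rcc1, a protein-coding gene on the same strand that spans most of Snhg3, was at 8.31 FPKM in WT against 8.47 in Postn-DTR, with a change of 0.02 against 1.20 for Snhg3. Znfx1, whose 5′ end overlaps that of Zfas1 on the opposite strand, was at 22.8 FPKM in WT against 21.9 in Postn-DTR, with a change of -0.057 against 1.27 for Zfas1. Both hosts differed between the libraries where the listed value of the overlapping gene stayed close to level. As Rcc1 and Snhg3 lie on the same strand, strand could not separate reads of stretches they share. Slc3a2, the amino acid transporter subunit whose gene starts 105 bases from Snhg1 on the opposite strand, was higher with Snhg1, at 89.5 FPKM in WT against 136.5 in Postn-DTR with a change of 0.60. Zbtb37, across Gas5, was at 0.699 and 0.575 FPKM and Mcmdc2, across the end of Snhg6, at 0.219 and 0.406, both under 1 FPKM. The library kit named in the labels marks strand, but whether strand was used in the counting is not given in the sources used here, so the values of overlapping genes are uncertain.

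**Figure D3:**
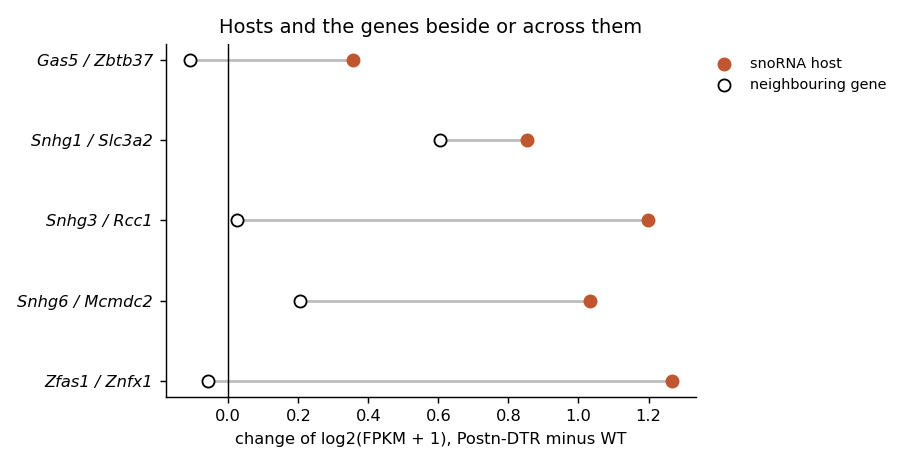
Difference in log2(FPKM + 1) with WT subtracted from Postn-DTR (x axis), for 5 hosts (filled) and the gene that overlaps or adjoins each (open), 1 library per genotype. Snhg3 and Zfas1 lie at 1.20 and 1.27 with their neighbours Rcc1 and Znfx1 at 0.02 and -0.057, while Slc3a2 lies at 0.60 beside Snhg1 at 0.85.

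The snoRNAs themselves were hardly measured. The library kit named in the labels selects polyadenylated RNA, and a mature snoRNA is usually shorter than the fragments it is built for. Of the 30 snoRNAs inside the hosts 9 had a value of their own, and 6 of these were listed at 0 in both libraries. Snora24, inside Snhg8, was listed at 0 in WT and at 9.95 FPKM in Postn-DTR, and Snora44, inside Snhg12, at 9.45 FPKM in WT and at 0 in Postn-DTR. Snord22, inside Snhg1 (chromosome 19, 8725866 to 8725991, plus strand, GRCm38), was the only snoRNA with a value in both, 101.5 FPKM in WT against 173.9 in Postn-DTR, with a change of 0.77 beside 0.85 for its host. Snord22, Snora24 and Snora44 each lie within an exon of an annotated transcript of their host. For all of them, unspliced or intron-retaining host RNA and the snoRNA therefore cannot be told apart. The sequence of Snord22 in the annotation is given because it is the 1 product of these hosts with a value in each library. The last of its 2 CTGA, the letters of box D, is in capitals. The letters TGATGA of box C were also looked for and were not found in it.
Snord22: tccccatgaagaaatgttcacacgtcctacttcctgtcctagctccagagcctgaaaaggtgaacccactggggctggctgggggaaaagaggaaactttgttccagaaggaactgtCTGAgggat

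Other noncoding snoRNA hosts were listed beside the members, and their values were less uniform. Of 15 in the files 13 exceeded the FPKM minimum, with a median change of 0.56, and 6 were at least 1.5-fold higher and 1 lower (background 9.86% higher and 8.84% lower). Snhg9 differed most, with 3.90 FPKM in WT and 41.4 in Postn-DTR, but the gene (chromosome 17, 24719531 to 24719965, minus strand, GRCm38) lies wholly inside that of the ribosomal protein Rps2 (24718116 to 24721929, plus strand), so its value is uncertain. Epb41l4aos was at 24.6 FPKM in WT and 75.6 in Postn-DTR, Snhg15 at 9.24 and 18.4, Snhg20 at 27.9 and 48.1, and Snhg10 at 3.28 and 6.09. Not all hosts were higher. Rian, an imprinted host of many C/D snoRNAs, was at 19.4 FPKM in WT and 9.80 in Postn-DTR, and Snhg18 was at 36.3 and 33.6. A search of the annotation for other noncoding genes with a snoRNA inside them, made after the values were seen, found 24, some of them already on the list. It did not return Snhg4, Snhg7, Snhg10, Snhg11, Snhg20 and Cdr1os, so these count as hosts by the list alone. Of the genes that the search found 14 were compared. Among these 6 were at least 1.5-fold higher and 1 was lower, with a median change of 0.50. Those not on the list were 2410006H16Rik at 79.5 FPKM in WT and 219.2 in Postn-DTR, 1110038B12Rik at 26.2 and 67.7, AA465934 at 2.52 and 4.85, 9330159M07Rik at 1.60 and 1.95, Rab26os at 35.7 and 38.3 and 2700038G22Rik at 4.37 and 2.59.

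All 82 ribosomal protein genes were higher in Postn-DTR as deposited, and 54 of them (65.9%) at least 1.5-fold, against 9.86% of all genes compared. With both libraries set to the same 75th percentile 25 were at least 1.5-fold higher, where 7.65% of all genes were. At equal totals without the acinar genes 2 of the 82 were, a smaller share than the 4.88% of all genes. That scaling moved the median change of all genes to -0.28, with the ribosomal median at 0.31 and 81 of the 82 above 0. As deposited, the changes of the 82 ran from 0.32 to 1.47. Rps27a was at 828.4 FPKM in WT and 1484 in Postn-DTR, and Rpl23 at 633.4 and 1177. Rps27 and Rpl34 had the largest changes, 1.47 and 1.12, from low levels of 4.17 and 21.8 FPKM in WT. Ribosomal protein genes have many near-identical processed copies in the genome, so values of single genes are uncertain. Hosting a snoRNA did not set ribosomal protein genes apart: the 30 with an annotated snoRNA inside had a median change of 0.62 and the 52 without one had 0.65. The lists of snoRNA hosts, ribosomal proteins and TOP transcripts held 133 genes compared, of which 82 were ribosomal protein genes. The 5 with a change closest to the members' median were Rps27a, Rpl36al, Rpl36a, Rpl23 and Rps25, each within 0.049 of it over the 2 libraries.

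Protein-coding hosts outside the ribosome showed smaller values. The 23 that were listed had a median change of 0.33, and 3 of them were at least 1.5-fold higher. These were Taf1d, which encodes a subunit of the RNA polymerase I selectivity factor and was at 16.1 FPKM in WT and 31.0 in Postn-DTR, and 2 that are themselves TOP transcripts, Tpt1 at 2492 and 4144 and Eef1b2 at 174.5 and 268.9. Hspa8, a chaperone gene that hosts snoRNAs, was at 814.3 and 1046 FPKM. All protein-coding hosts in the annotation outside the ribosome, 176 genes compared, had a median change of 0.08, and 13 of them (7.39%) were at least 1.5-fold higher, near the background of 9.86%. For TOP transcripts outside the ribosome the median change was 0.48 with 18 of 19 above 0, and 2 were at least 1.5-fold higher. Eef1a1, the elongation factor, was at 3650 FPKM in WT and 5152 in Postn-DTR.

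**Figure D4:**
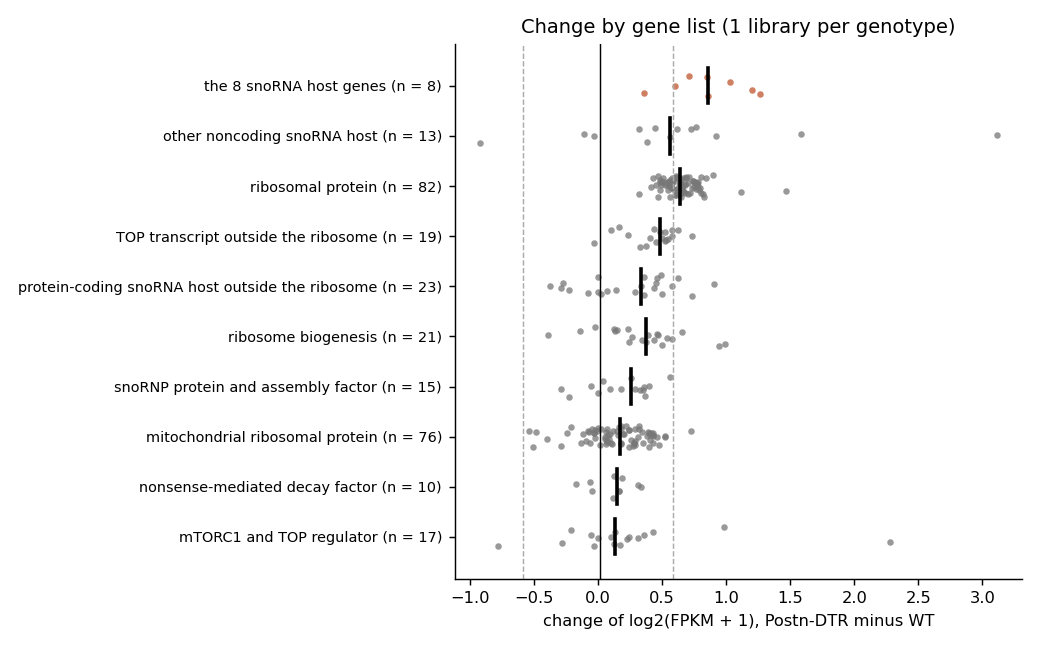
Difference in log2(FPKM + 1) with WT subtracted from Postn-DTR (x axis), for the genes of 10 lists (1 point per gene, spread vertically at random to be seen), with the median of each list as a black bar, the median of all 13127 genes as a line and 1.5-fold as dashed lines. The median of the 8 hosts lies at 0.86, that of ribosomal protein genes at 0.64 and that of mitochondrial ribosomal protein genes at 0.17.

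Genes of the machinery around the hosts were then read from lists. The mitochondrial ribosome is built from nuclear genes whose mRNAs are generally not TOP transcripts, and its 76 genes had a median change of 0.17, with 1 at least 1.5-fold higher, Mrps18b at 26.1 FPKM in WT and 43.6 in Postn-DTR. None of the 10 nonsense-mediated decay factors reached 1.5-fold in either direction. Of all genes compared, 9.86% were at least 1.5-fold higher and 8.84% lower. Upf1, the central helicase of that pathway, was at 23.9 FPKM in WT and 22.9 in Postn-DTR, and Upf3a at 23.6 and 25.8. The proteins that package and use snoRNAs had a median change of 0.26 over 15 genes, with none past 1.5-fold. Fbl, the methyltransferase fibrillarin of C/D particles, was at 62.3 and 82.3 FPKM, and Nop10, of H/ACA particles, at 78.4 and 88.7.

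Of 21 ribosome biogenesis genes 18 were above 0, as were 6811 of the 13127 genes compared, and the median change was 0.37. Against 9.86% of all genes compared, 3 of the 21 (14.3%) were at least 1.5-fold higher. These were Gnl3, which encodes nucleostemin and also hosts snoRNAs, at 18.7 FPKM in WT and 38.2 in Postn-DTR, Myc, the transcription factor that drives ribosome genes, at 15.5 and 30.7, and Nip7, at 7.30 and 12.1. The median of the 17 mTORC1 and TOP regulators was 0.13. Ddit4 and Sesn2, stress-induced inhibitors of mTORC1, were at 34.7 and 172.5 FPKM and at 6.65 and 14.1, and Deptor, an inhibitor within the mTOR complexes, was at 10.2 and 5.53. The level of Larp1, which binds TOP tracts, was 22.7 FPKM in WT and 25.1 in Postn-DTR.

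Markers of the cell types of the tissue also differed between the libraries, as RNA levels that do not count cells. The shares of all genes compared that were at least 1.5-fold higher and lower were 9.86% and 8.84%. All 5 macrophage markers were higher, 3 of them at least 1.5-fold, with a sum of 410.3 FPKM in WT against 1053 in Postn-DTR. All 6 T cell markers listed were at least 1.5-fold lower, with sums of 79.2 and 35.01 FPKM, and all 5 B cell markers were lower, 3 at least 1.5-fold, with sums of 450.8 and 328.9. Of 4 neutrophil markers 3 were at least 1.5-fold higher and Mpo lower, with sums of 336.9 and 604.5. Of 6 fibroblast markers 4 were lower, 2 of them at least 1.5-fold, Dpt and Postn. The other 2, Pdgfra and Pdpn, were higher by less than 1.5-fold, and the sums were 875.6 and 546.1. Of 5 adipocyte markers 3 were at least 1.5-fold lower and Fabp4 was higher, at 4879 FPKM in WT against 6519, so that the sums were 6238 and 7392. No marker of these 6 lists in the files was at 0 in either library. The part of these marker differences and of the acinar RNA of the WT library in the values of the snoRNA hosts was not tested.

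The size of the difference depended on how the libraries were put on 1 scale. With the acinar genes left out and both libraries set to equal FPKM totals, the median over all genes was -0.28 in place of 0.02, and the median of the 8 hosts was 0.53 and that of the ribosomal protein genes 0.31. Then 3 hosts reached 1.5-fold, as did 4.88% of all genes, and none reached 2-fold, as 2.33% of all genes did. The acinar genes left out were 1.84% of the WT total. The ribosomal protein genes, which stayed in, summed to 77952 FPKM in WT and 122521 in Postn-DTR. Their own difference is therefore part of what equal totals take out. All 8 hosts kept a change above 0 under each of the 7 other settings, with Gas5 lowest at 0.031 at equal totals.

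**Figure D5:**
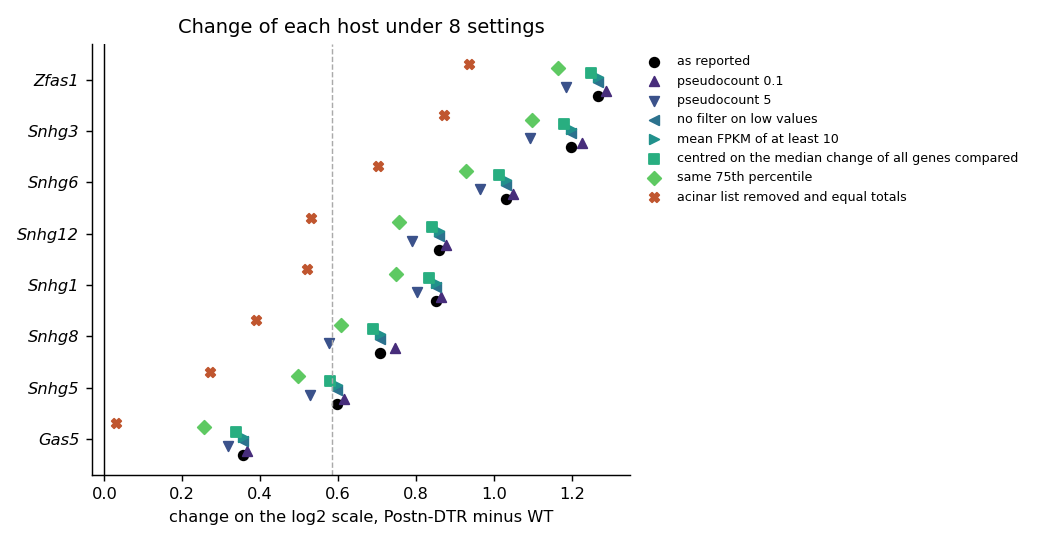
Change of each host on the log2 scale, Postn-DTR minus WT (x axis), as reported (black) and under 7 other settings of pseudocount, filter and scaling, with 1.5-fold as a dashed line. Every point lies above 0, which only the scalings could have changed. The values at equal totals (orange crosses) lie lowest, from 0.031 for Gas5 to 0.94 for Zfas1.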

How the data were processed

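RNA of whole omenta was measured in 2 libraries, 1 per genotype, extracted with a miRNeasy kit and prepared with a stranded TruSeq mRNA kit per the labels. The study's methods, which describe RNA-seq of sorted cells, name an RNeasy Micro kit and a NEBNext Ultra kit, so strand and poly(A) selection rest on the labels alone. The authors deposited FPKM, with 1 value for every gene symbol. The submitters' processing notes name TopHat2 2.1.1, Bowtie2 2.2.8, SAMtools 0.1.18, Cuffdiff 2.2.1 and the build mm10. The annotation is not given in the sources used here.

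The change was log2(FPKM + 1), Postn-DTR minus WT, for genes whose FPKM averaged at least 1, which understates changes of genes with low values. Called means a change of at least 1.5-fold or 2-fold. Ratios of single genes are of the deposited FPKM. No test was made. Older symbols were matched through RefSeq synonyms. Positions and transcript lengths came from GENCODE M21 (GRCm38), which may differ from the annotation used for the FPKM.

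Depth was estimated from low FPKM values of genes with 1 transcript, where 79.2% of 872 values were within 0.1 of a whole read at a length reduced by 200 bases. Reads of genes with several transcripts are approximate. Named were all members. For each other list the rule took genes past 1.5-fold plus the 2 of highest mean FPKM, at most 6 by size of change. Not all of these were named: Ncl, Npm1, Mrpl52, Mrps21, Eif4ebp1 and most of the cell type markers were left out. Snhg18, Slc3a2, Znfx1, Zbtb37, Mcmdc2, Rcc1, Larp1 and the genes of the annotation search were named for their position or role after their values were seen. Pdgfra and Pdpn were named for their direction. The members and lists were chosen with earlier results of these data known. The counting of genes past a fold was checked on simulated data. Python 3.11.15, scipy 1.17.1 and pandas 2.3.3 were used.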

Additional observations from a re-analysis of the deposited data

How the results depend on the processing

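No paired analysis was possible because each genotype had 1 library. The settings tried were 7: pseudocounts of 0.1 and 5, no filter, an FPKM average of 10 or more, centring on the median of all genes, the same 75th percentile, and equal totals without the acinar genes. At the same 75th percentile the median change of the ribosomal protein genes was 0.54. At equal totals the median change of the members was 0.53, that of the ribosomal protein genes 0.31 and that of all genes -0.28. There 3 members were at least 1.5-fold higher, where 4.88% of all genes were, and 0 were at least 2-fold higher, where 2.33% were. The 7 members at least 1.5-fold higher became 5 with a pseudocount of 5, without Snhg5 and Snhg8, where 6.36% of all genes were. They became 6 with centring or the same 75th percentile, without Snhg5, where 9.37% and 7.65% of all genes were. The 3 at least 2-fold higher became 2 with a pseudocount of 5 or the same 75th percentile, without Snhg6. The shares of all genes at least 2-fold higher there were 2.19% and 3.31%. At equal totals the changes of 5 of the 8 members left the counting interval, and under the other settings none did. The filters left the values of the members as they were, and a pseudocount cannot change a sign. Under centring and the scalings no member changed sign. Among all genes called at 1.5-fold, 52.7% were higher as reported, 40.7% at the same 75th percentile and 18.7% at equal totals. The genes called higher and lower, 1294 and 1160 as reported, were 835 and 522 with a pseudocount of 5, 821 and 455 with an average of 10 or more, and 642 and 2784 at equal totals. The 54 ribosomal protein genes at least 1.5-fold higher became 25 at the same 75th percentile and 2 at equal totals. The shares of all genes there were 7.65% and 4.88%. Variation between animals was not measured.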
